A study of Mus musculus with 16 samples.

Results

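Insulin acts on brown adipose tissue (BAT) through a short chain of proteins, and 10 genes of that chain are described here across all 16 libraries of the series. The genes were chosen by name for their place in the chain, and the list holds the receptors *Insr* and *Igf1r*, the adaptors *Irs1* and *Irs2*, the lipid kinase subunit *Pik3r1*, the kinases *Akt1* and *Akt2*, the transcription factor *Foxo1*, the glucose transport regulator *Tbc1d4* and the inhibitor *Grb10*. All 10 were found among the 49066 genes of the data, and all 10 passed the minimum mean of 1 TPM in each comparison. TPM is a transcript abundance scaled to a fixed total per library and corrected for transcript length, so levels can be compared between genes.

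Each sex contributed 4 WT and 4 KO mice, which were 18 weeks old and had received a high-fat diet (HFD, 60% of kcal from fat) for 12 weeks. KO mice (GDF15 BKO) carried *Gdf15* fl/fl and Ucp1-Cre, while WT mice were floxed littermates without Cre, so the floxed alleles were shared by all groups. GDF15 is a stress-induced circulating factor. Cre was driven by the *Ucp1* promoter, which is active in brown adipocytes, so the other cells of the tissue were not targeted.

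Insulin binds its receptor, which phosphorylates IRS proteins. These recruit phosphoinositide 3-kinase and thereby activate AKT, which keeps FOXO factors out of the nucleus and, by phosphorylating TBC1D4, lets glucose transporter vesicles reach the cell surface. BAT is among the tissues that take up much glucose per mass under insulin, and in many tissues the genes for IRS2 and the insulin receptor are targets of FOXO1 when insulin is low.

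*Gdf15* itself was measured at 0.368 to 3.81 TPM in male WT and 0.0801 to 0.272 TPM in male KO libraries. In females it was near 0 in both genotypes, at 0.0622 to 0.311 TPM in WT and 0 to 0.0794 TPM in KO. Brown adipocyte identity was clear in every group, with *Ucp1* between 2353 and 4423 TPM over all 16 libraries. Skeletal muscle markers varied widely. Their 14 genes summed to 122 to 2712 TPM in male WT and 103 to 5979 in male KO. In females the sums were 82 to 1798 TPM in WT and 98.5 to 5170 in KO. All 14 were fitted higher in males than females (median log2 difference 2.19, beside 0.08 over all genes), and none was called. All 14 were also fitted higher in KO over both sexes (0.82, beside 0.13), with none called. Their part in the results was not tested. Mitochondrial transcripts took 34.5 to 59.8% of the TPM, and female WT 4 held 17.7% of its TPM in transcripts absent from the gene annotation used here, against 0.333 to 0.48% in the other libraries. In bulk tissue, fewer cells of a type and less RNA per cell cannot be told apart.

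The levels of the members spanned a wide range and their order was alike at its top in each group. *Akt2*, the AKT form most tied to insulin-stimulated glucose uptake, was the highest member in all 4 groups, with means of 196 ± 21.2 TPM in male WT, 218 ± 15.9 in male KO, 178 ± 28.5 in female WT and 163 ± 34.8 in female KO (SD, n = 4). *Akt1*, the more broadly acting form, came next in every group with means of 28.3 to 38.5 TPM, and its range did not overlap that of its neighbours in any group. *Tbc1d4*, *Pik3r1* and *Insr* followed over all 16 libraries at 12.2 ± 2.45, 10.9 ± 3.27 and 9.57 ± 1.68 TPM (SD, n = 16), and the ranges of these neighbours overlapped. *Irs2* and *Foxo1* averaged 6.79 ± 5.44 and 6.38 ± 1.67 TPM. *Grb10* averaged 3.71 ± 1.07 TPM, and *Irs1* (1.51 ± 0.529) and *Igf1r* (1.26 ± 0.314) were the lowest members.

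**Figure D1:**
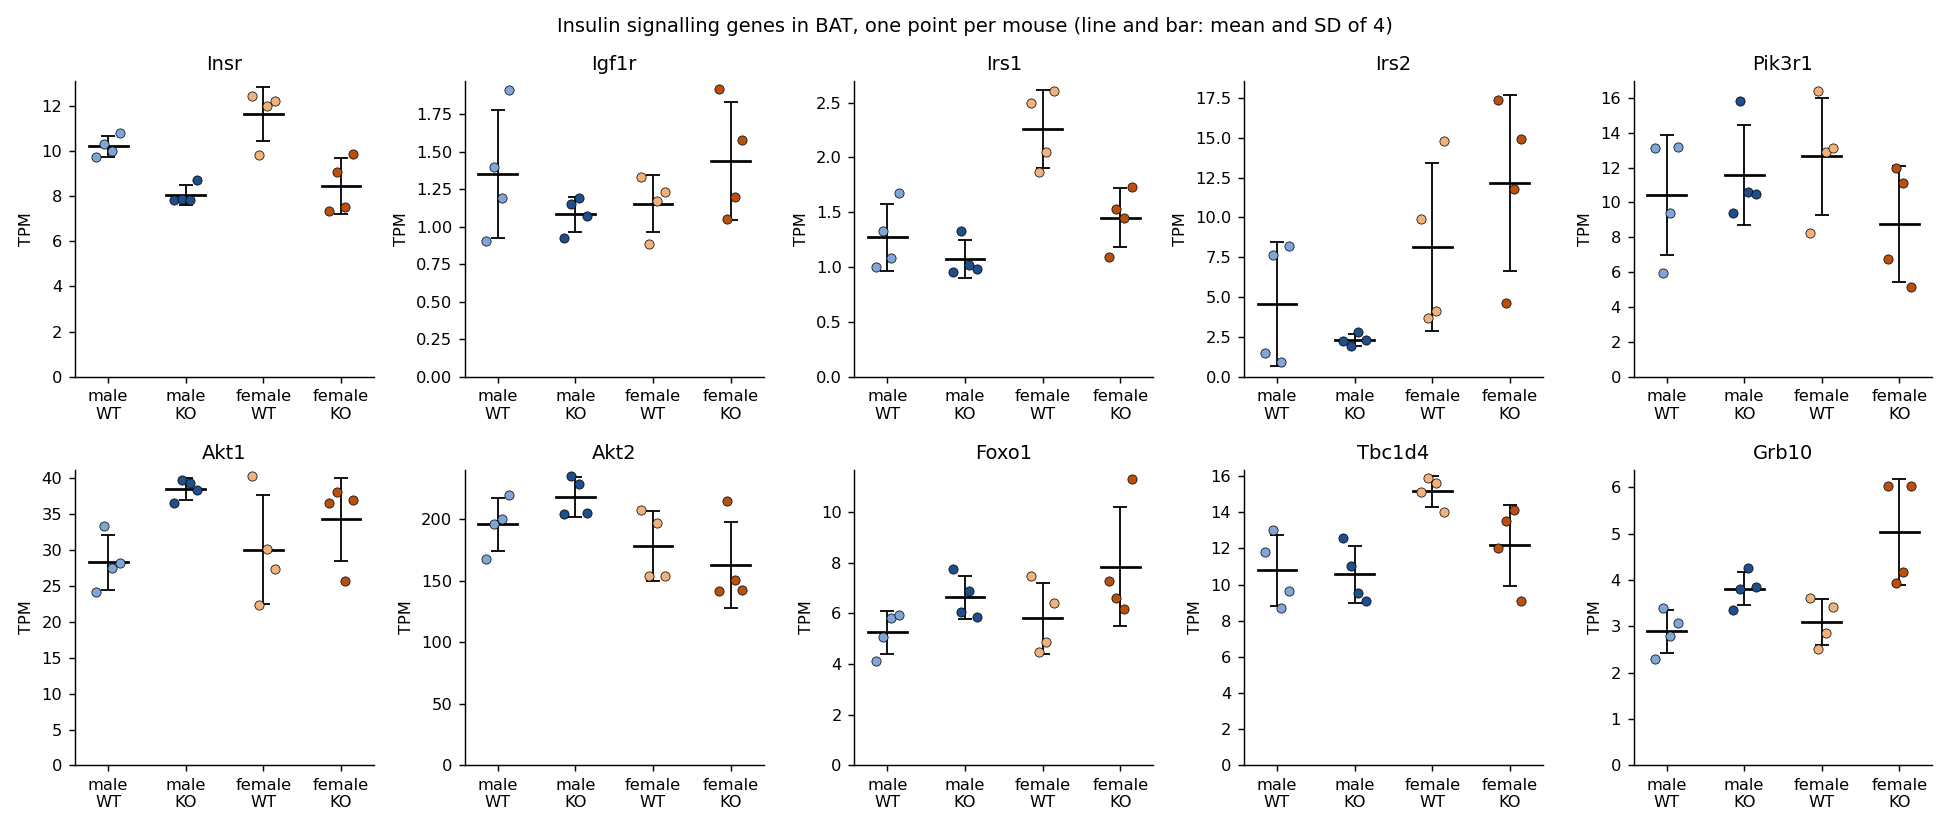
TPM of the 10 members (y axes, linear and starting at 0) for WT and KO mice of each sex, 1 point per mouse, with the mean and SD of 4 mice. *Insr* of the 4 male KO mice (7.8 to 8.7) sits below that of the 4 male WT mice (9.74 to 10.8), and *Irs2* ranges from 0.948 to 17.4.

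KO and WT were compared first to ask how these genes differed between the genotypes. Only KO mice carried Cre, and the paper reports that on HFD KO males were heavier and KO females lighter than WT. Within a sex, loss of *Gdf15*, Cre itself and body weight cannot be told apart here. Over both sexes *Insr* fell and *Grb10*, whose protein binds the activated insulin receptor and dampens its signal, rose, and no other member passed the test. At an unadjusted p below 0.05 stood 5 members, *Akt1*, *Foxo1* and *Grb10* higher and *Insr* and *Irs1* lower in KO, beside 24% of all genes (21.4% of all higher and 2.58% lower). Within males and within females alone no member passed. The male, female and combined comparisons use the same libraries and are not independent of each other.

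*Insr*, on chromosome 8, encodes the insulin receptor. In male WT it was 9.74, 10.3, 9.97 and 10.8 TPM and in male KO 7.8, 7.85, 7.82 and 8.7 TPM. In female WT it was 12.4, 9.83, 12 and 12.2 TPM and in female KO 7.32, 9.06, 7.52 and 9.85 TPM. Each male KO mouse was thus below each male WT mouse, and in females only the lowest WT value, of female WT 2, fell within the KO range. The fitted difference was -0.33 (SE 0.08) on the log2(TPM + 0.5) scale in males, with an adjusted p of 0.167 by limma, and -0.44 (SE 0.13) in females, with an adjusted p of 0.231. The exact permutation test gave p = 0.0286 in males, the smallest that 4 against 4 mice allow, and p = 0.0571 in females. Over both sexes *Insr* fell by 0.38 (SE 0.07), to 0.767 of the WT level, with an adjusted p of 0.0235. Of all 12210 genes tested in that comparison 2.95% were called and 0.352% were called lower, and in males 0.673% of genes had all KO values below all WT values.

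The combined call of *Insr* lay close to the threshold. It rests on the sum of all *Insr* transcripts. The full-length transcript Insr-201 alone was not called (-0.24, SE 0.08, adjusted p = 0.129 by limma), although it passed with median-of-ratios scaling (0.0199). The library names begin with a prefix whose meaning the labels do not give. The call was lost when that prefix entered as a covariate, at -0.44 and an adjusted p of 0.0578, and without male WT 3 (0.0548), male KO 2 (0.0564), male KO 3 (0.0567) or female KO 1 (0.0574). Over all genes these fits called 12, 47, 42, 31 and 51 in that order, against 360 as reported. Among mice that shared a prefix the log2 difference was -0.34 for 2 WT and 3 KO males, -0.72 for 1 WT and 1 KO female and -0.56 for 3 WT and 1 KO females. The female libraries also differed along transcript length, with a median log2 change of 0.22 in the quartile of shortest transcripts and -0.04 in that of the longest, where *Insr* (8199 bases on average) falls. With the trends on length and GC content removed, *Insr* was still called over both sexes (-0.27, adjusted p = 0.0354).

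The annotated transcripts of *Insr* divide by a small cassette exon, which is shown because the KO difference was larger on the transcript that carries it. This exon encodes a stretch near the end of the receptor's hormone-binding subunit. Receptors with it are known as IR-B and those without it as IR-A, and IR-A also binds IGF2 well. In GRCm38 with GENCODE M21 the exon is 36 bases long, which is 12 codons, and lies on the minus strand. It is exon 11 of 22 at chr8:3181702-3181737, and it is printed in capitals with 12 bases of each flanking exon in lower case.
*Insr* exon 11: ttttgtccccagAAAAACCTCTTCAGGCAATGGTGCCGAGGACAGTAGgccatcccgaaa

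The full-length transcript Insr-201 (9355 bases) lacks this exon, while Insr-203, an annotated coding fragment of 672 bases and 5 exons, carries it. Insr-203 was 1.53, 1.73, 1.52 and 1.31 TPM in male WT and 0.522, 0.703, 0.439 and 0.913 TPM in male KO. In female WT it was 2.07, 1.21, 1.58 and 2.32 TPM and in female KO 0.174, 0.606, 0.669 and 0.839 TPM. In neither sex did the genotypes overlap. Among genes, all KO values lay below all WT values for 0.673% in males and 3.19% in females. The share among transcripts was not computed. In a fit across 24073 transcripts, added after the values were seen, Insr-203 fell by 0.98 (SE 0.17) over both sexes with an adjusted p of 0.0184 by limma, whereas Insr-201 differed by -0.24 (SE 0.08) with an adjusted p of 0.129. In that fit 0.32% of transcripts were called lower.

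As a share of both transcripts, Insr-203 held 15.2 ± 1.84% in male WT and 8.05 ± 2.2% in male KO, and 15.9 ± 3.6% in female WT and 6.67 ± 3.02% in female KO (SD, n = 4). The exact permutation test gave p = 0.0286 in each sex. It became 0.0929 after adjustment over the 39 share tests made on the members, of which none passed. Other members shifted in females too. The most abundant transcript of *Akt1* held 73.8% in WT and 79% in KO, and that of *Akt2* 79.2 and 86.9% (permutation p = 0.0286 each). That of *Grb10* held 78.3 and 68.8% (permutation p = 0.486). In male KO the *Akt1* and *Akt2* shares were lower than in WT (permutation p = 0.257 and 0.286). Whether these shifts share an origin with that of *Insr* was not tested. Insr-203 stayed called without any single library (adjusted p 0.0179 to 0.0479) and was lost with the library prefix as covariate (0.0927) and with the replicate block (0.0501). The share is how kallisto divided reads between a short fragment and a long transcript, so it is not a direct count of reads across the exon, and a difference in coverage along the gene cannot be told apart from a difference in exon use.

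*Grb10*, on chromosome 11, was 2.29, 3.39, 2.8 and 3.08 TPM in male WT and 3.36, 3.8, 4.25 and 3.85 TPM in male KO. It was 3.6, 2.51, 2.85 and 3.41 TPM in female WT and 6.03, 3.93, 4.17 and 6.02 TPM in female KO. All female KO mice were above all female WT mice, whereas in males the lowest KO value was just under the highest WT value. The fitted difference was 0.35 (SE 0.13, adjusted p = 0.223 by limma) in males and 0.61 (SE 0.18, adjusted p = 0.231) in females, and over both sexes *Grb10* rose by 0.48 (SE 0.11), to 1.4 times the WT level, with an adjusted p of 0.0341. Genes called higher were 2.6% of those tested over both sexes, and 4.9% had all female KO values above all female WT values.

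The call of *Grb10* held in 7 of 16 fits that left out a library. It was lost without male WT 1, male WT 3, male KO 2, male KO 3, male KO 4, female WT 2, female WT 3, female KO 1 or female KO 4, with log2 differences of 0.44 to 0.53 and adjusted p of 0.0189 to 0.0783 over all 16 fits. It held in 6 of 10 other alternatives and was lost with no TPM minimum (0.0888), with the replicate block (0.0698), with unmatched transcripts removed from female WT 4 (0.0715) and with the library prefix as covariate (0.37, adjusted p = 0.193). Endothelial markers moved alongside in females, where the sum of the 12 markers was 279 to 446 TPM in WT and 476 to 974 TPM in KO (exact permutation p = 0.0286), and fibroblast markers did so in males, where 12 markers summed to 168 to 289 TPM in WT and 309 to 341 TPM in KO (exact permutation p = 0.0286). None of those markers was at 0 in all libraries, and their part in the result was not tested. Brown adipocyte markers overlapped between genotypes in both sexes, at 10289 to 15057 TPM in male WT and 11117 to 12551 in male KO, and at 7192 to 11803 in female WT and 8702 to 14198 in female KO.

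*Grb10* was read mostly from its longest coding form (76.6% of its TPM). A shorter coding form lacks exons 1 and 5 of 17, and it ranged from near 0 to 46.9% of both forms among mice of all groups. The spread within groups was as large as any difference between them, and no *Grb10* share passed the test (adjusted p at least 0.735).

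*Igf1r*, the receptor for insulin-like growth factor 1 and the closest relative of *Insr*, was low in every mouse. It was 0.906 to 1.91 TPM in male WT, 0.926 to 1.19 in male KO, 0.888 to 1.33 in female WT and 1.05 to 1.92 in female KO. The ranges overlapped in both sexes, and the difference over both sexes was 0.01 (SE 0.14, adjusted p = 0.979 by limma). At these levels the added 0.5 TPM shrinks any fold change.

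*Irs1*, on chromosome 1, encodes the adaptor that is the main docking protein of the insulin receptor in fat. It was 2.5, 1.87, 2.05 and 2.61 TPM in female WT and 1.09, 1.53, 1.45 and 1.73 TPM in female KO, so that each female KO mouse was below each female WT mouse. In males it was 0.999, 1.33, 1.08 and 1.68 TPM in WT and 0.957, 1.33, 1.02 and 0.984 TPM in KO, which overlapped. The fitted difference was -0.50 (SE 0.17, adjusted p = 0.237 by limma, exact permutation p = 0.0286) in females and -0.16 (SE 0.18, adjusted p = 0.625) in males. In females 3.19% of genes had all KO values below all WT values. Over both sexes the difference was -0.33 (SE 0.12) with an adjusted p of 0.108, and it passed with median-of-ratios scaling (0.0357) and with mitochondrial transcripts removed (0.0246). The KO effect in males minus that in females was 0.34 (SE 0.23, adjusted p = 0.52), so a difference between the sexes was not shown.

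*Irs2*, on chromosome 8, encodes the adaptor whose gene is quickly repressed by insulin and induced in fasting. It was the most variable member, at 1.46, 7.65, 0.948 and 8.18 TPM in male WT and 2.24, 1.9, 2.78 and 2.32 TPM in male KO. Female WT mice had 9.88, 3.7, 4.12 and 14.8 TPM and female KO mice 17.4, 4.63, 11.8 and 14.9 TPM. Male WT mice fell into a low and a high pair, male KO mice lay together, and the ranges overlapped in each sex. The coefficient of variation was 85.2% in male WT and 15.8% in male KO, against 4.58 and 5.46% for *Insr* in the same mice. KO minus WT was -0.43 (SE 0.57) in males and 0.62 (SE 0.50) in females, with adjusted p of 0.689 and 0.507 by limma, and the difference between these effects was -1.05 (SE 0.82, adjusted p = 0.577).

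*Pik3r1* encodes the regulatory subunit through which phosphoinositide 3-kinase docks on IRS proteins. Its range was 5.96 to 13.2 TPM in male WT, 9.37 to 15.8 in male KO, 8.24 to 16.4 in female WT and 5.14 to 12 in female KO. KO minus WT was 0.18 (SE 0.26) in males and -0.54 (SE 0.29) in females, and the difference of 0.72 (SE 0.42) between them had an adjusted p of 0.445 by limma. The long form Pik3r1-202 (724 codons) held 88.6% of the gene's TPM, and its share was 94.9 ± 5.13% in females and 82.2 ± 10.7% in males (SD, n = 8), with a permutation p of 0.00917 that became 0.0929 over the 39 share tests.

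*Akt1* was 24.1, 33.4, 27.5 and 28.2 TPM in male WT and 36.5, 39.8, 39.4 and 38.4 TPM in male KO. Every male KO mouse lay above every male WT mouse, as was so for 9.54% of all genes in males. The difference was 0.45 (SE 0.11) with an adjusted p of 0.166 by limma and an exact permutation p of 0.0286, beside a median of 0.16 over all genes. In females the range was 22.3 to 40.3 TPM in WT and 25.7 to 38.1 in KO, with a difference of 0.21 (SE 0.20, adjusted p = 0.582). Over both sexes *Akt1* differed by 0.33 (SE 0.12, adjusted p = 0.116) and was called without female WT 1 (0.0465) or female KO 3 (0.0492). Over all genes those fits called 530 and 862, against 360 with all libraries. Macrophage markers moved alongside in males, where the 14 markers summed to 49.2 to 94.2 TPM in WT and 123 to 179 in KO (exact permutation p = 0.0286); none was at 0 in all libraries, and their part in the result was not tested. *Akt2* differed by 0.16 (SE 0.11, adjusted p = 0.434) in males and -0.14 (SE 0.19, adjusted p = 0.692) in females, and the ranges overlapped in both sexes.

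*Foxo1*, the FOXO factor best known in insulin target tissues, was 4.12 to 5.95 TPM in male WT, 5.84 to 7.74 in male KO, 4.47 to 7.48 in female WT and 6.16 to 11.3 in female KO. The difference was 0.32 (SE 0.14, adjusted p = 0.262 by limma) in males, 0.39 (SE 0.22, adjusted p = 0.367) in females and 0.35 (SE 0.13, adjusted p = 0.13) over both sexes. The ranges overlapped in each sex, and the highest value was that of female KO 4.

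**Figure D2:**
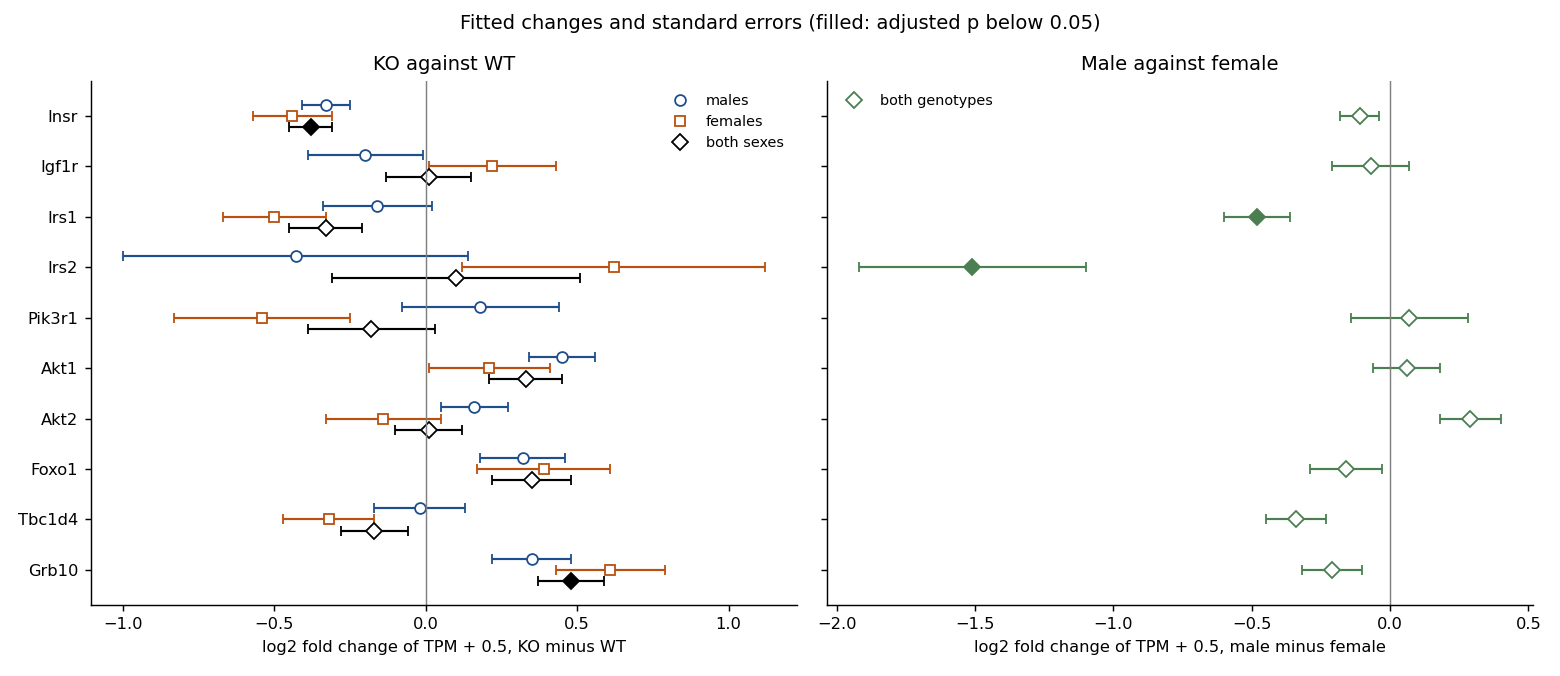
Fitted log2 fold changes of TPM + 0.5 (x axes) for the 10 members (y axis), with bars of 1 SE. The left panel gives KO minus WT in males, females and both sexes and the right panel male minus female; filled symbols passed an adjusted p of 0.05, which were *Insr* (-0.38) and *Grb10* (0.48) on the left and *Irs1* (-0.48) and *Irs2* (-1.51) on the right.

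*Tbc1d4*, on chromosome 14, encodes a Rab GTPase-activating protein that holds glucose transporter vesicles inside the cell until AKT phosphorylates it. As a whole gene it was 14 to 15.9 TPM in female WT and 9.1 to 14.1 in female KO, with a difference of -0.32 (SE 0.15, adjusted p = 0.305 by limma), and 8.68 to 13 and 9.11 to 12.6 TPM in males (-0.02, SE 0.15). Most of that TPM, 61.1%, was assigned to Tbc1d4-208, a retained-intron transcript that encodes no protein. Its coding transcripts differed more. Tbc1d4-205 was 3.43, 3.9, 4.14 and 4.38 TPM in female WT and 0.844, 2.37, 2.38 and 0.935 TPM in female KO, and Tbc1d4-209 was 2.8, 2.71, 3.5 and 2.94 TPM against 0.425, 1.73, 0.906 and 1.12 TPM. Both were thus lower in each female KO mouse than in each female WT mouse. This was so for 3.19% of genes in females, and the share among transcripts was not computed. Tbc1d4-208 overlapped (5.32 to 9 and 6.58 to 10.3 TPM). Its share was 50.4 ± 9.11% in female WT and 74.2 ± 5.96% in female KO (SD, n = 4). As for *Insr*, these values are how kallisto divided reads between the transcripts of a gene. Tbc1d4-205 and Tbc1d4-209 (5043 and 6483 bases) are longer than Tbc1d4-208 (3823 bases), and the female libraries differed along transcript length. The part of either in these transcript values was not tested.

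In the fit across transcripts, Tbc1d4-205 differed by -1.16 (SE 0.29) and Tbc1d4-209 by -1.24 (SE 0.27) in females, with adjusted p of 0.191 and 0.166 by limma, and neither passed. When only coding transcripts were summed per gene, a choice added after the values were seen, *Tbc1d4* fell by 0.72 over both sexes with an adjusted p of 0.0183, while with all transcripts it differed by -0.17 (adjusted p = 0.327). The fit of coding transcripts called more genes in general, 720 of 10289, against 360 of 12210 with all transcripts. In males the coding transcripts overlapped, at 1.99 to 3.37 and 1.93 to 2.52 TPM for Tbc1d4-205.

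**Figure D3:**
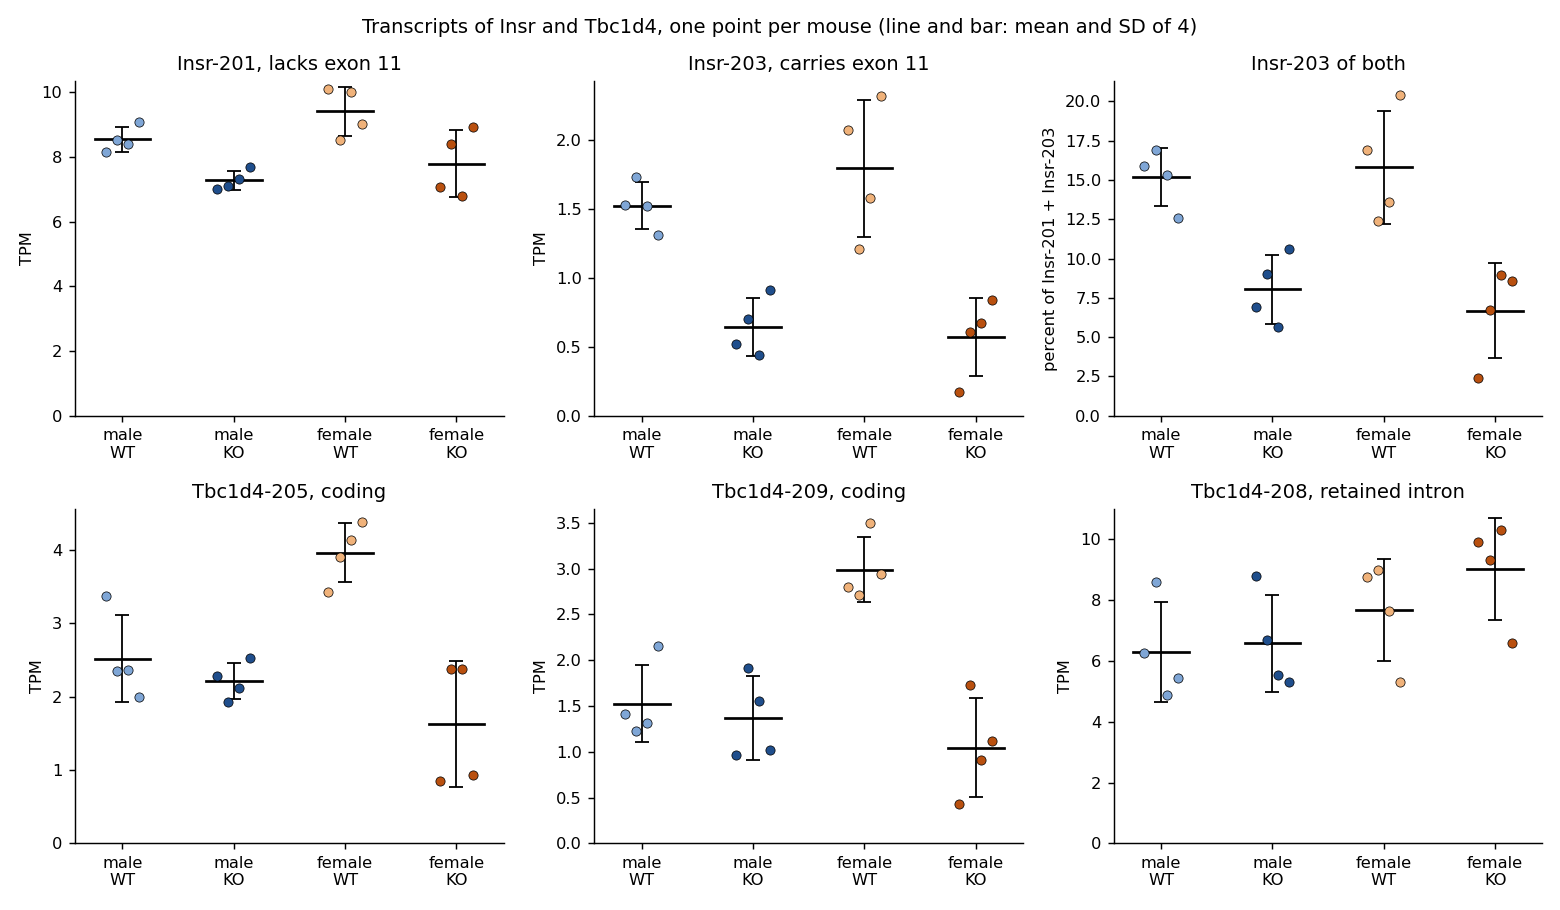
TPM of transcripts of *Insr* and *Tbc1d4*, and the percent of Insr-203 in Insr-201 plus Insr-203 (y axes, starting at 0), in the 4 groups, 1 point per mouse, with the mean and SD of 4 mice. Insr-203 does not overlap between WT and KO in either sex (1.31 to 1.73 and 0.439 to 0.913 TPM in males), and Tbc1d4-205 and Tbc1d4-209 do not overlap between female WT and KO.

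No member's KO effect differed between the sexes in the interaction test over all 16 libraries. The members with the smallest unadjusted p there were *Pik3r1* (0.103) and *Igf1r* (0.143), and limma called none of the 12210 genes, of which 14.2% had an unadjusted p below 0.05. The median difference of the members, 0.07 in males and 0.03 in females, lay beside medians of 0.16 and 0.10 over all genes.

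Males and females were then compared over both genotypes. *Irs1* and *Irs2*, the adaptors between receptor and kinase, were both called lower in males, and they were the only members called. Over all genes 4.47% were called and 0.581% were called lower in males, 21.3% had an unadjusted p below 0.05 (3.14% lower in males), and 0.0737% had all male values below all female values, which no member did. *Irs1* was 0.957 to 1.68 TPM in the 8 males (median 1.05) and 1.09 to 2.61 TPM in the 8 females (median 1.8). It was lower in males by a log2 difference of -0.48 (SE 0.12), to 0.719 of the female level, with an adjusted p of 0.0332 by limma and a permutation p of 0.00466. *Irs2* was 0.948 to 8.18 TPM in males (median 2.28) and 3.7 to 17.4 TPM in females (median 10.8), with a difference of -1.51 (SE 0.41), to 0.351 of the female level, an adjusted p of 0.0495 and a permutation p of 0.00699. The ranges of the sexes overlapped for both genes.

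These calls were close to the threshold. That of *Irs1* held in 8 of 10 other alternatives and was lost with no TPM minimum (adjusted p = 0.059) and with the library prefix as covariate (-0.62, adjusted p = 0.157). That of *Irs2* held in 6 of 11 and was lost with a pseudocount of 1 (0.0506), no TPM minimum (0.12), the replicate block (0.0504), unmatched transcripts removed from female WT 4 (0.061) and the library prefix (-1.44, adjusted p = 0.391). Within the prefixes that held both sexes (10, 5 and 9) the log2 differences were -0.58, -0.29 and -0.39 for *Irs1* and -2.32, -0.36 and -2.32 for *Irs2*, each resting on 1 mouse of a sex. Genotypes were pooled and not balanced there. Prefix 10 set a KO male against WT and KO females, prefix 5 WT males against a KO female. Prefix 9 set WT and KO males against a KO female. Sex and genotype cannot be told apart in these values. The call of *Irs1* was lost without male WT 3, male KO 3, male KO 4, female WT 1, female WT 3, female WT 4 or female KO 4 (adjusted p 0.0505 to 0.0782). Of the fits that left out a library, *Irs2* was called only in those without male WT 2, male WT 4, female WT 2 or female KO 2 (0.0224 to 0.0491) and was not called without any other single library (0.0564 to 0.109).

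The promoters of *Irs1* and *Irs2* are shown because these were the members that differed by sex and because FOXO factors bind short A-rich motifs. In 250 bases before each annotated start (RefSeq, GRCm38.p6; 15 windows of 9 members, *Insr* not matched), the insulin response element CAAAACA or its reverse TGTTTTG occurred in 2 of 15 windows, those of *Irs1* and *Irs2*, against 5.56% of all 32851 windows. The FOXO motif GTAAACA or its reverse TGTTTAC occurred in 1 of 15, an *Akt1* window, against 3.17% of all windows. Both strands were searched, the motifs are 7 bases long, and matches are in capitals, 2 in *Irs1* (chr1:82291440-82291689, minus strand) and 1 in *Irs2* (chr8:11008930-11009179, minus strand). A match of these letters is a description and not a bound site.
*Irs1* promoter: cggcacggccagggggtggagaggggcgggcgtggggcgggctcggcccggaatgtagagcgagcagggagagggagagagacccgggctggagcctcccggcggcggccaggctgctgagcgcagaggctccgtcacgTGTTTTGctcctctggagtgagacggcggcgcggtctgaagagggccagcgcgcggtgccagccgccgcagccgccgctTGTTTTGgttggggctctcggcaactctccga
*Irs2* promoter: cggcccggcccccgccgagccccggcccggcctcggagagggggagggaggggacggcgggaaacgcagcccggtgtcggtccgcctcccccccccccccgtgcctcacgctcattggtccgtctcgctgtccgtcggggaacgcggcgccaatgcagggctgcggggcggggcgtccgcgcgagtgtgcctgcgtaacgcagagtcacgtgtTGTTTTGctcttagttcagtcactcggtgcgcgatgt

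Of the remaining members, *Tbc1d4* was lower (-0.34, SE 0.11, adjusted p = 0.0831 by limma) and *Akt2* higher (0.29, SE 0.11, adjusted p = 0.122) in males without passing the test, although *Tbc1d4* was called without female KO 4 (0.0482) and *Akt2* without female KO 2 (0.0283). Over all genes those 2 fits called 268 and 1021, against 546 with all libraries. *Akt2* was 168 to 235 TPM in males and 142 to 215 TPM in females. *Insr* differed by -0.11 (SE 0.07, adjusted p = 0.408), *Grb10* by -0.21 (SE 0.11, adjusted p = 0.281), and *Igf1r*, *Pik3r1*, *Akt1* and *Foxo1* by -0.16 to 0.07.

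The other genes of the pathway were read from lists of 94 genes in 8 roles of the pathway, of which 80 were tested. Over both sexes 3 were called, all higher in KO, which is 3.75% beside 2.95% of all genes. *Igfbp7*, a secreted IGF-binding protein abundant in vessels, was 29.4 to 60.1 TPM in male WT and 54.4 to 64.7 in male KO, and 36 to 46 in female WT and 52.8 to 83.7 in female KO; it rose by 0.63 (SE 0.14, adjusted p = 0.0313 by limma). *Igfbp6*, which binds IGF2 in preference to IGF1, rose by 0.74 (SE 0.17, adjusted p = 0.037), from 2.57 to 4.22 TPM in male WT to 5.49 to 10.6 in male KO, with overlapping ranges in females (4.67 to 8.11 and 4.75 to 9.77). *Inpp5d*, the lipid phosphatase of blood cells that removes the product of phosphoinositide 3-kinase, rose by 0.57 (SE 0.12, adjusted p = 0.0305), and its KO values lay above its WT values in males (1.03 to 1.88 and 1.93 to 2.81 TPM) and in females (1.24 to 1.85 and 2.07 to 2.85). Among all genes, all KO values lay above all WT values for 9.54% in males and 4.9% in females. The endothelial, fibroblast and macrophage marker sums given above moved in the same comparisons, and their part in these calls was not tested. The calls of *Igfbp7* and *Inpp5d* held in 8 of 16 fits that left out a library and that of *Igfbp6* in 7 of 16, with adjusted p up to 0.083. Of the other alternatives, *Igfbp7* was called in 7 of 11, *Inpp5d* in 5 of 10 and *Igfbp6* in 5 of 11, and all were lost with no TPM minimum, the replicate block, the library prefix and unmatched transcripts removed from female WT 4.

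By role, the 5 tested binding proteins were all above 0 in KO over both sexes, with a median of 0.63 beside 0.13 over all genes. Also above 0 were all 5 subunits of phosphoinositide 3-kinase, 13 of 14 FOXO factors and target genes and 14 of 16 inhibitors. The other roles were more mixed. Above 0 were 6 of 9 adaptors, 10 of 18 downstream kinases, 5 of 10 genes of glucose transporter traffic and 1 of 3 ligands and other receptors. The share of all genes above 0 was not computed, and their median was itself above 0. The 5 tested subunits of phosphoinositide 3-kinase had a median of 0.07, the 9 adaptors 0.16, the 18 downstream kinases 0.08, the 10 genes of glucose transporter traffic 0.00, the 16 inhibitors 0.15, the 14 FOXO factors and target genes 0.17 and the 3 ligands and other receptors -0.02. *Gsk3b*, the kinase that AKT inhibits to allow glycogen synthesis, came closest among those not called (-0.45, SE 0.12, adjusted p = 0.0539), and *Tbc1d1*, the relative of *Tbc1d4*, was next (0.39, SE 0.11, adjusted p = 0.0546).

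Within males or females alone limma called none of the other pathway genes, and in the interaction none either, beside 0.00821% of all genes in males and none in females. At an unadjusted p below 0.05 stood 18.7% of genes in males and 17.1% in females. In females *Gsk3b* was 6.86 to 8.49 TPM in WT and 3.18 to 4.55 in KO, with a difference of -0.85 (SE 0.14, adjusted p = 0.211), while in males it was 4.9 to 9.55 and 5.3 to 7.11 TPM. *Deptor*, an inhibitor of mTOR, was 27.4 to 47.3 TPM in female WT and 8.64 to 21.7 in female KO (-1.52, SE 0.32, adjusted p = 0.231). In females 3.19% of all genes had all KO values below all WT values, as *Gsk3b* and *Deptor* did. For *Slc2a4*, the insulin-responsive glucose transporter, male WT had 87.9 to 168 and male KO 141 to 194 TPM, and female WT had 131 to 152 and female KO 72 to 136 TPM; the KO effect in males minus that in females was 0.92 (SE 0.30, adjusted p = 0.221).

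Between the sexes 4 of the 80 were called, which is 5% beside 4.47% of all genes. *Grb14*, the relative of *Grb10* that also inhibits the insulin receptor, was higher in males by 1.17 (SE 0.21, adjusted p = 0.00853 by limma). It was 51.4 to 70.8 TPM in male WT and 64.5 to 84 in male KO against 30.8 to 38.4 in female WT and 12.2 to 46 in female KO. No female thus reached a male, as was so for 0.295% of all genes. The call of *Grb14* held without any single library and in all 11 other alternatives. *Irs3*, a rodent adaptor of adipose tissue, was lower in males by a log2 difference of -0.72 (SE 0.16, adjusted p = 0.0234), as *Irs1* and *Irs2* were. *Rhoq*, a GTPase linked to glucose transporter traffic, was higher by 0.58 (SE 0.14, adjusted p = 0.0317), and *Shc1*, an adaptor to the mitogen pathway, by 0.26 (SE 0.07, adjusted p = 0.04). The calls of *Irs3*, *Rhoq* and *Shc1* held in 12, 7 and 4 of 16 fits that left out a library and in 9, 7 and 3 of 11 other alternatives.

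**Figure D4:**
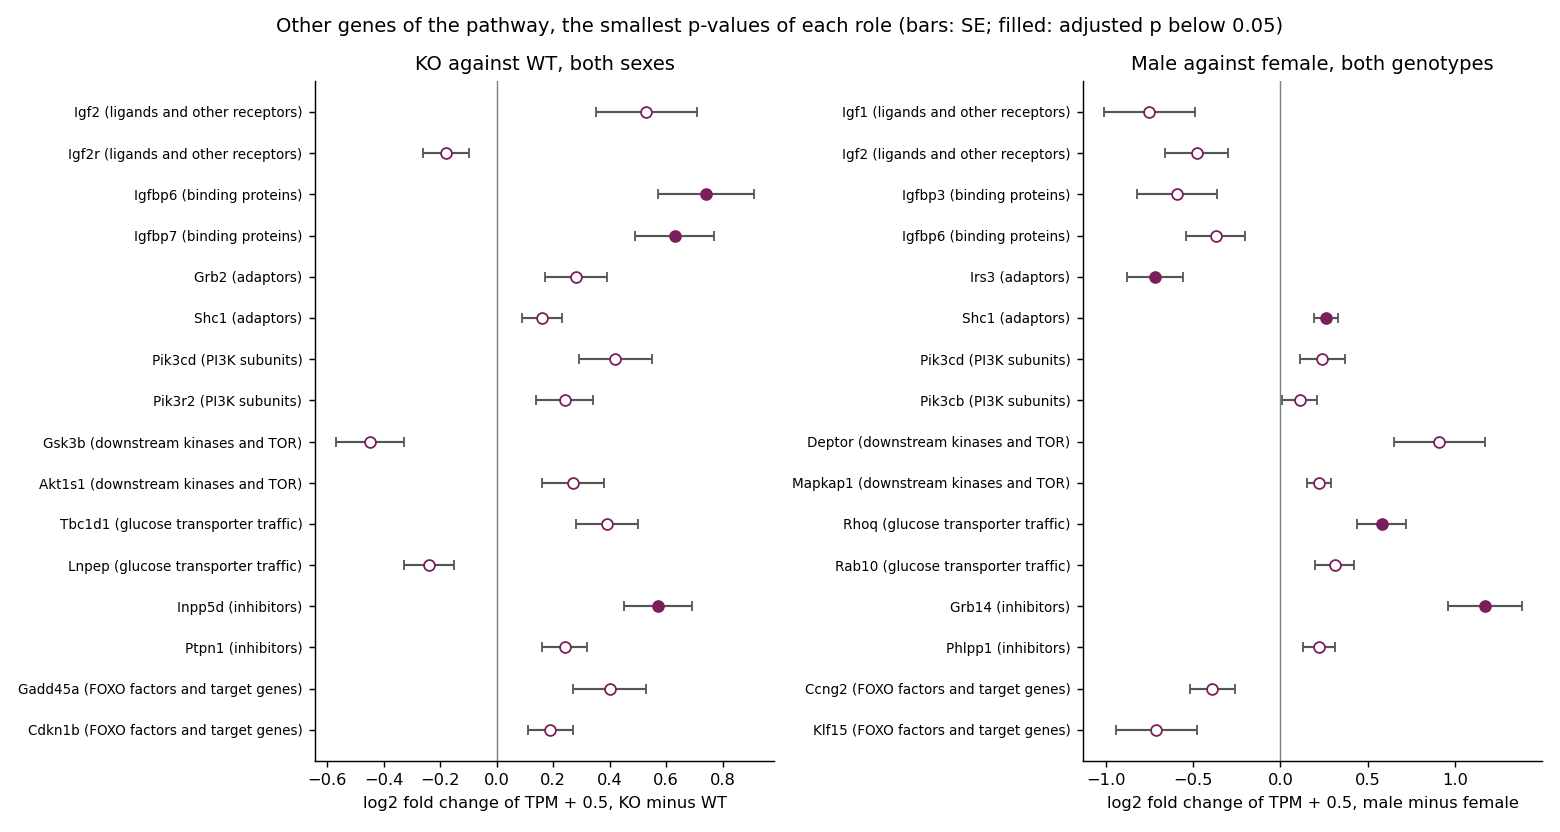
Fitted log2 fold changes of TPM + 0.5 (x axes, bars of 1 SE) for the genes with the smallest p-values in each role of the pathway (y axes), KO minus WT over both sexes on the left and male minus female on the right. Filled symbols passed an adjusted p of 0.05; *Grb14* (1.17) and *Irs3* (-0.72) lie farthest to each side among those called between the sexes.

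The members also varied together from mouse to mouse. After group means were subtracted, *Igf1r* and *Grb10* had a Pearson's r of 0.85 (Spearman's rho 0.90), *Igf1r* and *Irs2* 0.76 (0.81) and *Irs2* and *Grb10* 0.74 (0.78) over 16 libraries. *Pik3r1* went against *Grb10* (-0.73), *Foxo1* (-0.65) and *Akt1* (-0.62). *Insr* was closest to *Irs1* (0.65), and *Akt2* to *Akt1* (0.57). These are descriptions over libraries that share their composition: the percent of mitochondrial TPM, treated alike, had an r of -0.72 with *Grb10*, -0.71 with *Irs2* and -0.63 with *Igf1r*, and its part in these values was not tested.

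**Figure D5:**
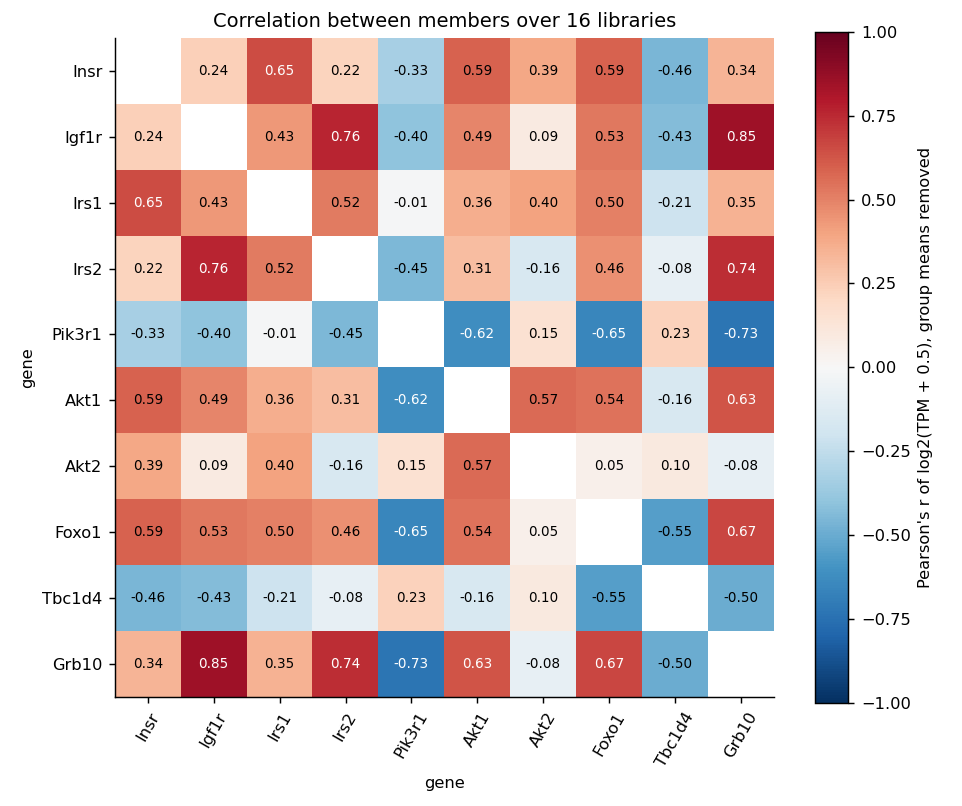
Pearson's r between members (both axes) of log2(TPM + 0.5) with group means removed, over 16 libraries, on a colour scale from -1 to 1. *Igf1r*, *Irs2* and *Grb10* have pairwise values of 0.74 to 0.85, and the rows of *Pik3r1* and *Tbc1d4* hold most of the negative values.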

How the data were processed

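Bulk RNA of BAT was measured in 16 libraries. The authors made stranded mRNA libraries, sequenced single-end reads and quantified transcripts with kallisto 0.46.2, and the values the authors deposited are TPM, which have the same sum in each library. The submitters' processing notes name GRCm39, and the annotation release was not given in the sources used here. Read numbers behind a TPM are unknown, so no counting interval is given, and the authors' count test was not run.

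Identifiers were matched to GENCODE M21 without version, which placed 135051 of 137438 transcripts; 2387 were left out. TPM were summed per symbol, transformed as log2(TPM + 0.5) and, for genes with a mean of at least 1 TPM over the libraries compared, fitted with limma 3.58.1 in R 4.3.3 (eBayes with trend; Benjamini-Hochberg over all genes; threshold 0.05). Fold changes on this scale understate those of low genes. Fits were tested on simulated data. Single genes had an exact two-sided permutation test over mice within males, within females and between the sexes; it was not run for the combined KO comparison or the difference between sexes. Groups came from the labels, which do not tie mice to litters. Named were all members, and of the other pathway genes those called and up to 2 of smallest p per role. The members and lists were chosen with earlier results of these data known.

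Alternatives were the pseudocount, the TPM minimum, median-of-ratios scaling, removal of mitochondrial transcripts, a replicate block, the library prefix, a single fit of all libraries, no trend and each library left out. Coding transcripts only, removal of length and GC trends, removal of unmatched transcripts from female WT 4 and the fit across transcripts were chosen after seeing the data. Promoters were taken from RefSeq (GRCm38.p6) and the *Insr* exon from GENCODE M21 (GRCm38). The meaning of the library prefixes is not given by the labels.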

Additional observations from a re-analysis of the deposited data

Results flagged for a closer look

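Of 40 groups of 4 mice (10 members in 4 groups), 4 held a mouse that stood apart from the other mice of its group by Dixon's criterion at the 95% level, and chance flags about 1 in 20 groups. *Insr* was highest in male KO 4, at 8.7 TPM, beside 7.8 to 7.85 in the other male KO mice. *Insr* was lowest in female WT 2, at 9.83 TPM, and this was the mouse that brought the female ranges into overlap. *Akt1* was lowest in female KO 3, at 25.7 TPM, and *Akt2* was highest in female KO 2, at 215 TPM.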

How the results depend on the processing

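The number of members called over both sexes, 2 as reported, became 1 with no TPM minimum, under a minimum mean of 5 TPM, with the replicate block and with unmatched transcripts removed from female WT 4, and 0 with the library prefix as covariate. It became 3 with median-of-ratios scaling and with mitochondrial transcripts removed, which added *Irs1*, and with coding transcripts only, which added *Tbc1d4*. Between the sexes the 2 called members became 1 with a pseudocount of 1, under that minimum of 5 TPM, with the replicate block and with the unmatched transcripts removed, and 0 with no TPM minimum and with the prefix. A minimum of 5 TPM leaves *Grb10* and *Irs1* untested, which accounts for its lower counts; for the other settings the cause was not tested. Leaving out 1 library gave 0 to 3 members in each of these comparisons. The calls over all genes shifted too. Over both sexes they numbered 360 as reported, 12 with the prefix, 54 with no TPM minimum and 60 with the replicate block. They numbered 80 with the unmatched transcripts removed, 471 with median-of-ratios scaling, 720 with coding transcripts only and 31 to 1055 with a library left out. Between the sexes they numbered 546 as reported, 93 with the prefix, 262 with no TPM minimum and 194 to 1021 with a library left out. Within each sex and for the difference between sexes 0 members were called under every setting. The members' median change in females, 0.03 as reported, was -0.14 under the 5 TPM minimum, -0.13 with the prefix and -0.10 with length and GC trends removed; that removal gave -0.12 in males and -0.03 for the difference between sexes. Median-of-ratios scaling moved the median of all genes from 0.16 to 0.00 in males and from 0.13 to 0.01 over both sexes. Deviations of same-numbered WT and KO mice correlated from -0.12 to 0.35, and those of differently numbered mice from -0.31 to 0.44. So few correlations cannot decide whether replicate numbers pair the mice. The labels state no pairing, and the replicate block stands as another setting. Over the members, the other pathway genes of smallest p and the *Insr* transcripts, 82 calls were lost and 25 gained with a library left out, and 43 were lost and 16 gained with the other settings. No called value turned its direction, whereas values near 0 that were not called did, such as *Irs2* over both sexes (-0.13 to 0.30 with a library left out) and *Tbc1d4* in males (-0.19 to 0.10 with the other settings). Read numbers are unknown, so the precision of low genes such as *Igf1r* and *Irs1* is known only from the spread between mice.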
